A study of Mus musculus with 36 samples.

Results

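The comparison described here is between mouse lungs taken 28 days after 1 intranasal dose of large graphene oxide sheets (L) and lungs taken 28 days after the dextrose carrier alone (D). The members were chosen by sample label: 3 L libraries and 3 D libraries of the 36 RNA-seq libraries of the series, with 16903 of 46078 genes passing the filter on low counts. Graphene oxide is oxidised carbon in sheets about an atom thick. The study asked whether the width of the sheets changes the lung's response, and also dosed mice with small (S) and ultrasmall (US) sheets and took lungs at days 1, 7 and 28. All mice were wild type C57BL/6 females. At day 28 they are labelled as 13 weeks old in both groups. At days 1 and 7 they are labelled as 9 and 10 weeks old, so age and day changed together in every comparison between days. L mice received 50 µg of graphene oxide in 5% dextrose in water and D mice received 0 µg in the same carrier, so the anaesthesia, the instillation and the dextrose were shared. The RNA came from small pieces of every lobe and was kept only at an RNA integrity number of at least 8. The labels do not say which animal a library came from. The p-values therefore measure the spread between libraries, which may be technical.

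Inhaled particles that reach the alveoli are taken up by macrophages, which hold them in lysosomes, the acidic compartments where proteases and hydrolases break down what a cell has swallowed. Macrophages that carry particles or lipid are known for secreted proteases and for the lipid receptor Trem2. The lung also has a circadian clock, in which Clock, Npas2 and Arntl (Bmal1) drive the Per, Cry, Rev-erb (Nr1d1, Nr1d2), Dec (Bhlhe40, Bhlhe41) and Dbp genes, whose products hold the loop back or pass it on.

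The 6 libraries held between 16554469 and 20242155 counts, so that 1 CPM (counts scaled to a common library total) stood for 16.6 to 20.2 counts. CPM values below use each library's own total, and fold changes come from edgeR's quasi-likelihood fit over all 36 libraries with its TMM scaling. The surfactant gene Sftpc was counted at 18263, 19752 and 21145 CPM in L and 16856, 17671 and 16019 CPM in D and the club cell gene Scgb1a1 at 27820.1, 33268 and 27527 CPM in L and 34869, 39119 and 24869.7 CPM in D, so both groups carried the defining markers of lung. In a principal component analysis of the 6 libraries the first component held 36.6% of the variance and separated L from D. The second held 18.7% and set L replicate 2 apart from the other L libraries, with scores of -39.5 against 22.3 and 11.4. Log CPM correlated between replicates at 0.983 to 0.987 across genes, which are not independent replicates.

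At an edgeR adjusted p under 0.05, 363 of the 16903 genes differed between L and D, or 2.15%. Of these, 212 were higher in L (1.25% of all tested) and 151 were lower (0.893%). The balance between directions depended on the analysis: 688 were higher and 774 lower with only the day 28 libraries, 406 and 399 with only the L and D libraries, 269 and 88 without L replicate 2, and 1370 and 1459 at an unadjusted p under 0.05. In 349 of the 363 the libraries of the groups did not overlap. Over all genes tested, 16.5% had all 3 L libraries above all 3 D libraries and 14.4% had them below, and the median log2 fold change was 0.00. Every count of list members below is to be read beside these shares and those of the called genes. The plot of every tested gene shows that the largest fold changes among called genes were upward. The share depended on single libraries. It was 0.653% without L replicate 1, 0.624% without L replicate 3, 1.04% without D replicate 1, 0.874% without D replicate 2 and 1.2% without D replicate 3, against 2.08% without L replicate 2.

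**Figure D1:**
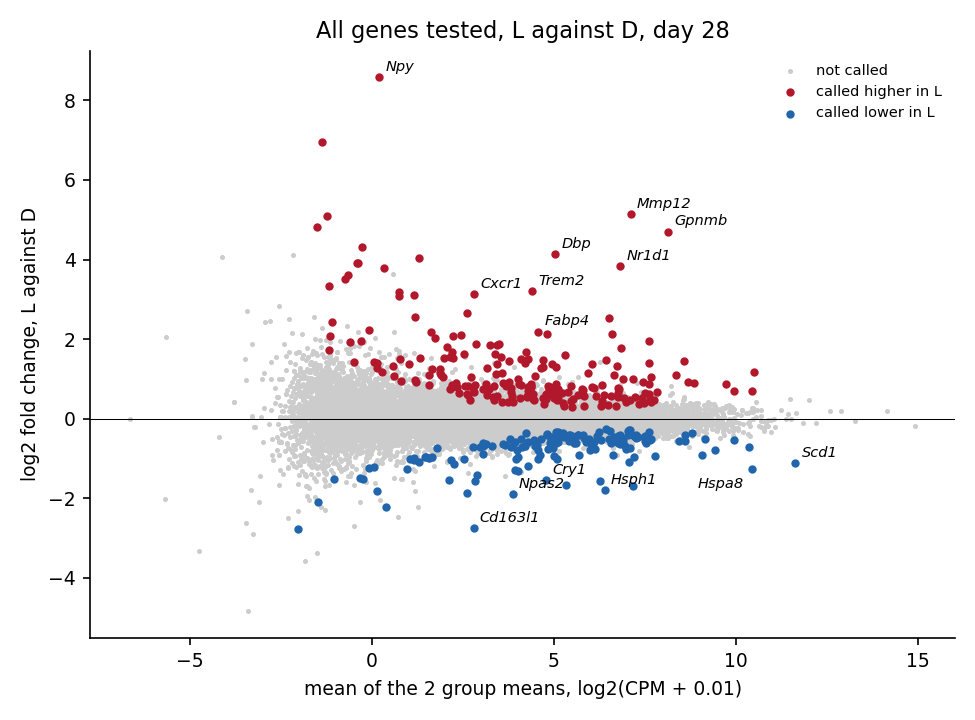
Log2 fold change of L against D at day 28 (vertical) against the mean of the group means on a log2(CPM + 0.01) scale (horizontal), 1 point per tested gene; red points are the 212 genes called higher, blue points the 151 called lower, and grey points the genes not called. Mmp12 and Gpnmb combine a high level with log2 fold changes of 5.14 and 4.70; the point for Npy, above them, rests on D libraries that all had 0 counts, so its fitted value is no measure of size.

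Genes of particle- and lipid-laden macrophages rose, among them Mmp12 and Gpnmb. Of the 20 genes listed for such cells, all 20 were tested, 14 rose and none fell, against 1.25% of all genes called higher. The list's median log2 fold change was 1.04 beside 0.00 over all genes. This list and those below were chosen with earlier results of these data known, so their counts describe these libraries and are no independent support. DESeq2 called 15 of the 20 genes higher. These lungs were a mixture of cells, so more cells of a type and more RNA per cell cannot be told apart. Library values below are given in the order of replicates 1, 2 and 3.

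Mmp12, the macrophage elastase that cleaves elastin, lies at chr9:7344381-7369499 in the GRCm38 coordinates of the deposited tables. It was counted at 407, 113.2 and 287 CPM in L and 6.35, 7.35 and 8.84 CPM in D (log2 fold change 5.14 ± 0.49, edgeR adjusted p = 1.86e-07), which is a 35.2-fold difference. Even the lowest L library, replicate 2, stood far above the highest D library. Gpnmb (chr6:49036518-49058182) encodes a glycoprotein of the macrophage's endosomes and lysosomes, and was counted at 774, 227 and 630.2 CPM in L and 15.6, 22.3 and 23.7 CPM in D (log2 fold change 4.70 ± 0.50, edgeR adjusted p = 1.01e-06). Trem2 (chr17:48346401-48354147), a receptor for lipids, stood at 51.5, 19.2 and 45.003 CPM in L and 2.90, 4.22 and 5.14 CPM in D (log2 fold change 3.21 ± 0.36, edgeR adjusted p = 2.96e-06). Its signalling partner Tyrobp, outside the list and named after its values were seen, stood at 207, 152 and 224 CPM in L and 91.4, 94.3 and 102.9 CPM in D (log2 fold change 0.99 ± 0.13, edgeR adjusted p = 4.09e-05). In each of these genes the groups were apart and L replicate 2 was the lowest of the L libraries.

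On the per-length scale of TPM (transcripts scaled to a common sum), which allows levels of different genes to be set side by side, mean Gpnmb in L (263 ± 141, SD, n = 3) lay between Mmp12 (152 ± 96.7) and Spp1 (399 ± 152). In D, Spp1 was at 104.9 ± 41.3 TPM, Gpnmb at 10.2 ± 2.34 TPM, and Mmp12 and Trem2 both at 4.55 TPM with SDs of 1.96 and 1.87. Spp1 (osteopontin), a secreted matrix protein, had the highest D level of these genes, and was counted at 329, 191 and 416 CPM in L and 93.7, 45.01 and 98.2 CPM in D (log2 fold change 1.96 ± 0.48, edgeR adjusted p = 0.0273). Its call was lost in 7 of 14 alternative analyses, among them those without L replicate 1, without L replicate 3 and without each D library in turn. Mmp12, Gpnmb and Trem2 passed in all 14, with log2 fold changes of 4.65 to 5.51, 4.36 to 5.08 and 2.95 to 3.54.

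Other listed members with roles in digestion and lipid handling rose by smaller amounts. The collagen-cutting protease Ctsk stood at 194, 106.4 and 176 CPM in L and 25.7, 44.4 and 38.0 CPM in D (log2 fold change 2.12 ± 0.39, edgeR adjusted p = 0.00236). The lysosomal membrane protein Cd68, a common macrophage marker, stood at 153, 85.0 and 149.7 CPM in L and 36.002, 49.6 and 50.4 CPM in D (log2 fold change 1.49 ± 0.21, edgeR adjusted p = 1.04e-04). Lgals3 (galectin 3), which binds damaged endosomes, stood at 339, 207 and 309 CPM in L and 94.0, 111.8 and 112.98 CPM in D (log2 fold change 1.398 ± 0.23, edgeR adjusted p = 4.91e-04). None of these overlapped between groups. The log2 fold changes of the further called members were 1.33 for the proton pump subunit Atp6v0d2, 1.19 for the protease Ctsd, 1.09 for lipoprotein lipase, 0.99 for the integrin CD11c gene Itgax, 0.89 for Syngr1, 0.88 for the protease Ctsb and 0.68 for the fatty acid carrier Fabp5. The other 6 members did not pass: the acid lipase Lipa (0.66, edgeR adjusted p = 0.0590), Apoe (0.65), Cd63 (0.61), Plin2 (0.58), Cd9 (0.14) and the scavenger receptor Cd36 (-0.04). Summed over the 20 genes, the list stood at 10988, 7043 and 10646 CPM in L and 5614, 5376 and 5502 CPM in D.

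**Figure D2:**
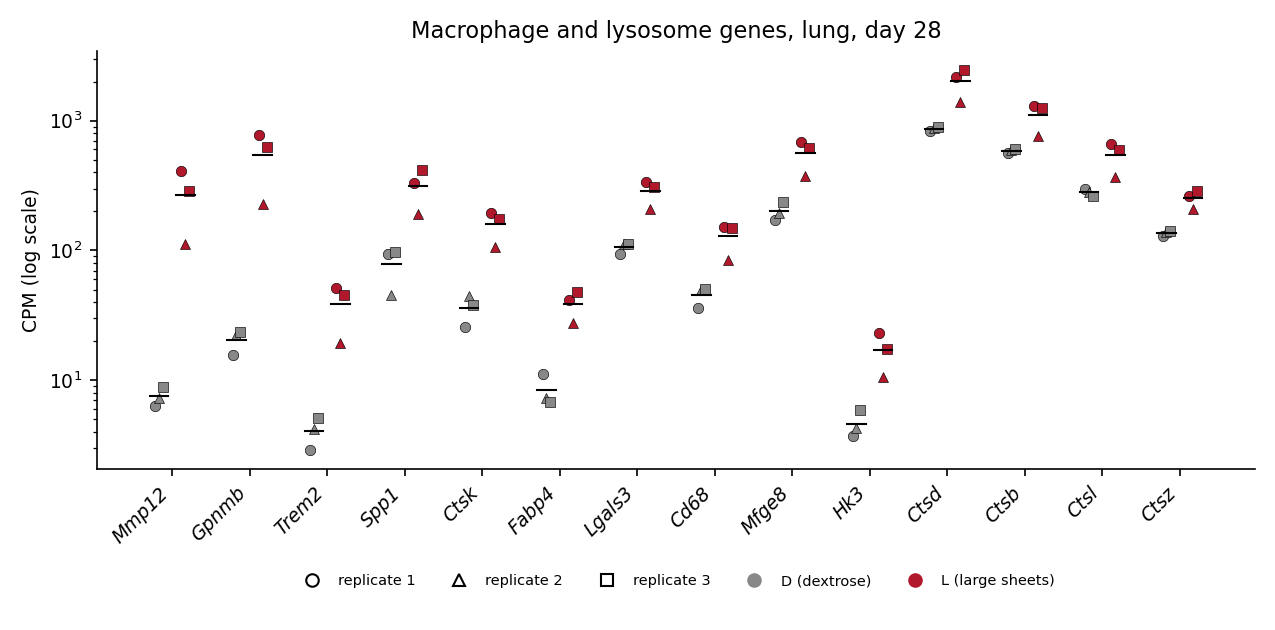
CPM on a log scale for 14 macrophage and lysosome genes in each of the 6 day 28 libraries; grey is D, red is L, the symbol gives the replicate and the black bar is the mean of 3 libraries. In every gene shown the L libraries lie above the D libraries, and the red triangle of L replicate 2 is the lowest L value.

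Genes for the clearance of dying cells and for myeloid metabolism gave 2 more calls. Of 10 genes listed for efferocytosis, Mfge8 and Hk3 rose and the remaining 8 were not called, with a median log2 fold change of 0.11. Mfge8, which bridges phosphatidylserine on dying cells to phagocytes, stood at 690.2, 373 and 617 CPM in L and 171, 196 and 236 CPM in D (log2 fold change 1.45 ± 0.20, edgeR adjusted p = 8.27e-05). Hk3, the hexokinase of myeloid cells, stood at 23.1, 10.6 and 17.5 CPM in L and 3.72, 4.27 and 5.88 CPM in D (log2 fold change 1.85 ± 0.26, edgeR adjusted p = 9.61e-05). Fabp4, a fatty acid carrier of macrophages and fat cells, stood at 41.5, 27.4 and 47.8 CPM in L and 11.1, 7.35 and 6.77 CPM in D (log2 fold change 2.186 ± 0.29, edgeR adjusted p = 4.62e-05). The fat cell genes Lep and Ucp1 were at or near 0 counts in all 6 libraries and Adipoq was at 0, 0.172 and 0.242 CPM in L and 1.37, 0.342 and 0.296 CPM in D and was not called.

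Several called genes were all but absent from D. Npy, which encodes a neuropeptide, stood at 2.81, 1.43 and 2.60 CPM in the L libraries and had 0 counts over the 3 D libraries. Against a floor of 3 counts over the D group it was at least 42.9-fold higher. Ibsp, a bone matrix sialoprotein gene named after its values were seen, had 39 counts in L and 0 in D, at least 13.7-fold higher by the same floor. Both statements cover counting error only. With 0 counts in D, neither gene could pass the low-count filter through D, so the direction of their difference from D was fixed in advance. Npy passed it through the L libraries, the group in which it is high. Mean Npy was 0.825 ± 0.673 CPM (SD, n = 3) in L at day 7 and at most 0.0637 CPM in the groups other than L.

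Genes of lysosomal enzymes rose in part. Of 22 lysosome genes, 8 rose and none fell, against 1.25% of all genes called higher, with a median log2 fold change of 0.26. In 16 of the 22 all L libraries lay above all D libraries, against 16.5% of all genes. Among the 8 were the cathepsins Ctsl (0.92 ± 0.14), Ctss (0.90 ± 0.20), Ctsz (0.86 ± 0.13) and Ctsa (0.63 ± 0.10), the galactosidase Gla (0.87 ± 0.18), the sphingolipid activator precursor Psap (0.71 ± 0.16) and the hexosaminidase subunit Hexa (0.52 ± 0.14), each a log2 fold change with its SE. Ctsl stood at 658, 368 and 598 CPM in L and 298, 285 and 262 CPM in D and Ctsz at 262, 208 and 288 CPM in L and 128.3, 139.7 and 141 CPM in D. Lamp1 (0.13), Lamp2 (-0.05) and Npc1 (-0.20) and the regulator Tfeb (0.44) were not called. The count of 8 fell to 3 without L replicate 1, without L replicate 3 or without D replicate 1.

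Many lysosomal genes are known to carry the CLEAR element, whose core is TCACGTGA, bound by Tfeb. It was searched on both strands in the 250 bases before each start site in RefSeq's promoter table (GRCm38.p6). Of the called lysosome and particle macrophage genes, 17 matched the table, with 21 windows. The 8 letters occurred in 3 of these genes, Ctsd, Ctsa and Gla (14.3% of the 21 windows), and in 0.785% of all 32851 windows. The stretches around them are shown because they belong to genes called higher in L. Capitals mark the core, which also contains the E-box CACGTG, and each sequence runs 5′ to 3′ along its gene. Ctsd is at chr7:142387889-142387956 (minus strand), Ctsa at chr2:164833730-164833772 (plus strand) and Gla at chrX:134601163-134601255 (minus strand).
Ctsd: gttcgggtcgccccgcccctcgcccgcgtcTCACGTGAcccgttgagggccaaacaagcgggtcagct
Ctsa: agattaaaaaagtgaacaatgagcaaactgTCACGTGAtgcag
Gla: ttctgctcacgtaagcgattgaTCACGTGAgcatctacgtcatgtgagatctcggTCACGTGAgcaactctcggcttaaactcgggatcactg
The match begins 99 bases before the RefSeq start site in Ctsd and 13 in Ctsa, and Gla has matches at 228 and 195. The Ctsa stretch lies inside the gene's span in the deposited coordinates, chr2:164832873-164841032, so the RefSeq start site used lies downstream of the deposited start. Ctsd stood at 2165, 1392 and 2468 CPM in L and 827, 885 and 891 CPM in D, Ctsa at 248, 204 and 262 CPM in L and 143, 152 and 158 CPM in D and Gla at 33.0, 17.5 and 30.5 CPM in L and 13.1, 15.7 and 14.9 CPM in D, without overlap in any of them. A match is a description of these letters and not of binding.

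L replicate 2 stood apart in these groups. It was the lowest of the 3 L libraries in all 14 called particle macrophage genes and in all 8 called lysosome genes. Over the 212 genes called higher it was the lowest L library in 160, or 75.5%, against 37.3% of all genes tested. Its median ratio to the mean of the other L libraries was 0.547 in the called particle macrophage genes and 0.662 in the called lysosome genes, beside 1.01 over all genes. Without it, 15 of the 20 particle macrophage genes were called and their median log2 fold change was 1.303. Without L replicate 1 or without L replicate 3, 11 were called, with medians of 0.93 and 0.95. The part of this library's other differences in these results was not tested.

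Few markers of other macrophages and of granulocytes passed the test. None of the 14 genes that mark resident alveolar macrophages was called by edgeR, with a median of 0.04. At an unadjusted p under 0.05 there were 2, both higher, and DESeq2 called 1. Marco stood at 26.6, 34.4 and 36.002 CPM in L and 18.3, 24.9 and 33.1 CPM in D and Siglecf at 27.7, 19.96 and 27.7 CPM in L and 27.6, 30.02 and 26.1 CPM in D, with overlapping libraries. Of 15 monocyte and interstitial macrophage genes 1 rose, the membrane protein gene Ms4a7 at 27.2, 10.3 and 23.0 CPM in L and 7.88, 6.27 and 7.56 CPM in D (log2 fold change 1.45 ± 0.33, edgeR adjusted p = 0.0136). That call was lost without L replicate 1, L replicate 3 or D replicate 2. Of 14 neutrophil genes 1 rose, the C-type lectin gene Clec4d at 24.9, 9.75 and 18.7 CPM in L and 5.47, 3.36 and 5.38 CPM in D (log2 fold change 1.88 ± 0.45, edgeR adjusted p = 0.0205), which macrophages also express. The call for Clec4d was lost without any one of the 6 libraries other than L replicate 2. Ly6g, a defining neutrophil gene, was at 0.208, 0.115 and 0.302 CPM in L and 0.164, 0.228 and 0.198 CPM in D, and S100a8 was at 47.5, 23.3 and 27.8 CPM in L and 23.0, 16.1 and 39.4 CPM in D. Of 14 CC chemokine genes 1 rose, Ccl3 at 7.77, 4.53 and 7.73 CPM in L and 2.24, 2.85 and 1.63 CPM in D (log2 fold change 1.56 ± 0.32, edgeR adjusted p = 0.00530), which lost its call without D replicate 3 (adjusted p = 0.0511).

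The early inflammatory genes of the lung were not called at day 28. None of 11 neutrophil-attracting chemokine and cytokine genes passed in edgeR (3 higher and 1 lower at an unadjusted p under 0.05, 0 by DESeq2), and none of 14 acute phase and mucosal defence genes did (0 at an unadjusted p under 0.05 and 0 by DESeq2). The neutrophil-attracting chemokine Cxcl5 stood at 1.04, 1.03 and 1.21 CPM in L and 2.68, 2.45 and 4.59 CPM in D, the iron-binding protein gene Lcn2 at 201, 182 and 245 CPM in L and 96.9, 122.03 and 165 CPM in D and the serum amyloid gene Saa3 at 6.88, 3.50 and 3.93 CPM in L and 1.37, 1.94 and 4.69 CPM in D. The L libraries of Lcn2 lay above those of D and those of Cxcl5 below, with edgeR adjusted p-values of 0.501 and 0.276. None of 20 interferon-stimulated genes, 12 type 2 response genes or 21 T and NK cell genes was called. At an unadjusted p under 0.05 these lists held 1, 2 and 1 genes, all higher, and DESeq2 called none.

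Circadian clock genes changed in opposite directions in the opposite arms of the clock. All 5 genes listed as in phase with Arntl fell, with a median log2 fold change of -1.55. Of 12 genes listed as in phase with Dbp, 8 rose and none fell, with a median of 0.86. The summed level of the first list was 145, 137 and 128.4 CPM in L and 289, 266 and 281 CPM in D, and that of the second was 955, 944 and 1058 CPM in L and 381, 408 and 373 CPM in D. The hour at which each lung was taken is not given in the sources used here, and its part in these results was not tested.

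In the activator arm, Arntl (chr7:113207465-113314122), the partner of Clock, stood at 19.6, 22.5 and 16.5 CPM in L and 67.2, 55.9 and 58.7 CPM in D (log2 fold change -1.66 ± 0.27, edgeR adjusted p = 4.91e-04). Npas2, a stand-in for Clock, stood at 5.89, 7.40 and 5.62 CPM in L and 24.2, 20.4 and 24.2 CPM in D (log2 fold change -1.89 ± 0.29, edgeR adjusted p = 2.25e-04). Clock itself fell least, from 131.4, 127.6 and 134.3 CPM in D to 95.6, 81.7 and 84.1 CPM in L (log2 fold change -0.61 ± 0.17, edgeR adjusted p = 0.0452). Nfil3, a repressor that competes with Dbp for its sites, stood at 9.90, 10.7 and 7.55 CPM in L and 24.9, 22.8 and 21.1 CPM in D (log2 fold change -1.31 ± 0.34, edgeR adjusted p = 0.0369). Cry1, a repressor that peaks late and is grouped here by phase, stood at 13.7, 14.6 and 14.6 CPM in L and 41.1, 39.4 and 42.6 CPM in D (log2 fold change -1.55 ± 0.19, edgeR adjusted p = 1.59e-05). In all 5 genes every L library lay below every D library. With any one of the 6 libraries left out, 3 of the 5 were called. Arntl, Npas2 and Cry1 kept their calls in all 14 alternatives, and Nfil3 lost its call in 8.

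In the opposite arm, Dbp, an output factor of the PAR bZIP family, stood at 60.4, 48.9 and 78.5 CPM in L and 3.88, 3.02 and 3.61 CPM in D (log2 fold change 4.13 ± 0.59, edgeR adjusted p = 9.34e-05), a 17.5-fold difference. The repressor Nr1d1 (Rev-erb alpha; chr11:98767932-98775333) stood at 213, 225 and 199 CPM in L and 14.6, 16.9 and 12.3 CPM in D (log2 fold change 3.83 ± 0.40, edgeR adjusted p = 1.01e-06). Its paralogue Nr1d2 stood at 170.1, 127.5 and 168 CPM in L and 27.5, 27.7 and 23.9 CPM in D (log2 fold change 2.53 ± 0.22, edgeR adjusted p = 3.23e-08). The other called members were Bhlhe41 at 28.1, 21.6 and 36.8 CPM in L and 7.99, 9.74 and 8.79 CPM in D, Per3 at 38.9, 43.0 and 60.0 CPM in L and 19.8, 19.5 and 17.5 CPM in D and Tef at 211, 235 and 244 CPM in L and 117.5, 124.5 and 116.2 CPM in D, together with Bhlhe40 (0.80 ± 0.16) and Hlf (0.70 ± 0.19) as log2 fold changes. Their log2 fold changes were 1.68 ± 0.20, 1.29 ± 0.22 and 0.92 ± 0.18. The other 4 members of the list did not pass: Cry2 (0.34), Per2 (0.15), Per1 (-0.21) and Ciart (-0.76). Per1 stood at 32.7, 45.1 and 40.4 CPM in L and 46.6, 39.9 and 47.7 CPM in D and Per2 at 20.5, 24.4 and 26.0 CPM in L and 21.3, 23.3 and 17.9 CPM in D, with overlapping libraries in both.

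**Figure D3:**
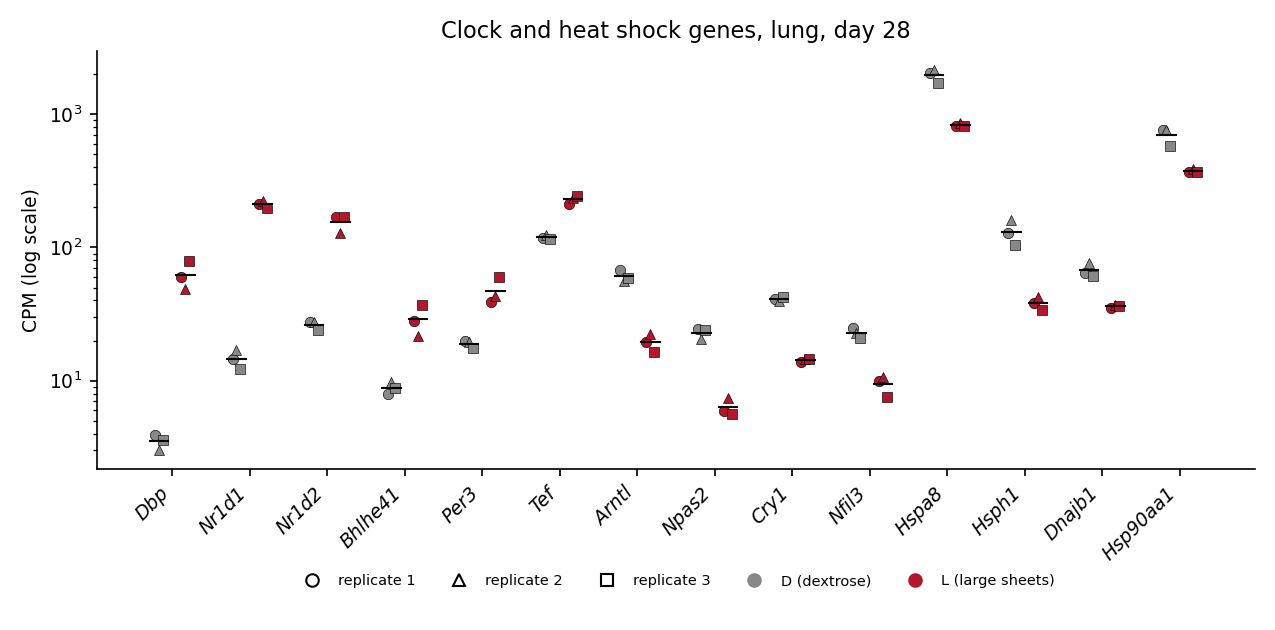
CPM on a log scale for 10 clock genes and 4 heat shock genes in each of the 6 day 28 libraries; grey is D, red is L, the symbol gives the replicate and the black bar is the mean of 3 libraries. The first 6 genes are higher in every L library than in every D library, and the other 8 are lower.

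Clock and Arntl bind the E-box CACGTG, and Dbp, Tef, Hlf and Nfil3 bind the D-box TTATGNAA. Both were searched on both strands in the same 250-base windows. All windows held the E-box in 6.02% and the D-box in 3.07% of cases. Of the called clock genes 12 matched, with 16 windows. The E-box stood in Tef, Bhlhe41 and Cry1 (25.0% of the windows) and the D-box in Per3 (6.25%). They are shown because genes that rose (Tef, Bhlhe41) and one that fell (Cry1) held the same E-box letters, and because Per3 held 2 copies of the D-box. Capitals mark the motif. Per3 is at chr4:151044786-151044900 (minus strand), Tef at chr15:81802516-81802581 (plus strand), Bhlhe41 at chr6:145865538-145865603 (minus strand) and Cry1 at chr10:85185079-85185144 (minus strand).
Per3: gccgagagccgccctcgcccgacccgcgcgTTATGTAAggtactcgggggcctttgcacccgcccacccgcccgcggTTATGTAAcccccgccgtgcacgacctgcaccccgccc
Tef: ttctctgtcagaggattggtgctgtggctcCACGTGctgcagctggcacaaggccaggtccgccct
Bhlhe41: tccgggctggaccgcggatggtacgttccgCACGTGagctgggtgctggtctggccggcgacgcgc
Cry1: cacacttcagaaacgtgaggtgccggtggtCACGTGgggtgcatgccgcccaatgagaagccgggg
The D-boxes of Per3 begin 205 and 158 bases before its start site. The E-box begins 153 bases before the start site in Bhlhe41 and 60 in Cry1. Where the letters are not found, that says only that these windows do not hold them.

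In some of these genes the D mean at day 28 also lay away from the D means of the earlier days, which was not tested, and in others it did not: Bhlhe41 was at 9.89 ± 0.273, 10.2 ± 1.41 and 8.84 ± 0.878 CPM (SD, n = 3) in D at days 1, 7 and 28. Mean Arntl was 60.6 ± 5.88 CPM (SD, n = 3) in D at day 28, against 35.996 ± 6.46 in D at day 1 and 33.2 ± 10.8 at day 7. In L it was 19.5 ± 3.02 at day 28, 15.8 ± 7.39 at day 1 and 7.52 ± 1.92 at day 7. Nr1d1 was 14.6 ± 2.31 CPM in D at day 28, against 115.5 ± 24.2 and 107.1 ± 38.4 at days 1 and 7. In L it was 212 ± 12.7, 247 ± 101.7 and 259.6 ± 40.9 CPM at days 28, 1 and 7. The L mean was below the D mean in Arntl and above it in Nr1d1 at all 3 days, while D was at its highest in Arntl and its lowest in Nr1d1 at day 28. At day 28 the means of S and US stood between those of L and D in Nr1d1 and Cry1, with Nr1d1 at 108.1 ± 39.9 and 47.1 ± 15.3 CPM and Cry1 at 16.5 ± 0.719 and 28.03 ± 2.15 CPM, against 14.3 ± 0.512 in L and 41.0 ± 1.61 in D. In Npas2 the US mean, 25.3 ± 2.99 CPM, was above that of D, 22.9 ± 2.20 CPM, and in Per3 the US mean, 16.6 ± 0.307 CPM, was below that of D, 18.9 ± 1.22 CPM.

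Heat shock genes were lower in L. Of 12 genes for heat shock factors and chaperones, 6 fell and none rose, with a median log2 fold change of -0.92. Hspa8 (chr9:40800984-40805200), the constitutive Hsp70 that folds new proteins, stood at 818, 859 and 815 CPM in L and 2035, 2154 and 1707 CPM in D (log2 fold change -1.27 ± 0.16, edgeR adjusted p = 3.42e-05). Hsph1, which recharges Hsp70 with ATP, stood at 38.5, 42.6 and 33.7 CPM in L and 128.1, 159 and 104.2 CPM in D (log2 fold change -1.80 ± 0.27, edgeR adjusted p = 2.06e-04). Dnajb1, a J-domain partner of Hsp70, stood at 35.4, 37.1 and 36.5 CPM in L and 64.6, 76.3 and 60.6 CPM in D (log2 fold change -0.91 ± 0.14, edgeR adjusted p = 2.37e-04). The L libraries were close to each other and all lay below the D libraries. Hsp90aa1 (-0.92 ± 0.17), Dnaja1 (-0.95 ± 0.16) and the mitochondrial chaperonin Hspd1 (-0.41 ± 0.11) also fell, on the log2 scale. The stress-inducible Hspa1a was not called and varied more, at 13.3, 13.6 and 2.42 CPM in L and 21.2, 45.1 and 7.31 CPM in D. Summed over the 12 genes the level was 1691, 1769 and 1655 CPM in L and 3641, 3901 and 3000.0 CPM in D.

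The D means of Hspa8 and Hsph1 at day 28 were above those of D at the earlier days, again not tested. Mean Hspa8 was 1965 ± 231 CPM in D at day 28, against 1274 ± 181 at day 1 and 1052 ± 86.3 at day 7. L stood at 831 ± 24.5 CPM at day 28, S at 851 ± 39.5 and US at 1150.0 ± 122.9. Hsph1 was at 130.6 ± 27.7 CPM in D at day 28, against 67.3 ± 10.5 at day 1 and 48.7 ± 9.60 at day 7, and at 38.2 ± 4.43, 45.01 ± 4.05 and 74.2 ± 11.7 CPM in L, S and US.

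Genes of endoplasmic reticulum stress shared a part of this direction. Of 12, 3 fell and 1 rose. The resident chaperone Hspa5 (BiP) stood at 528, 484 and 519 CPM in L and 849, 898 and 827 CPM in D (log2 fold change -0.78 ± 0.17, edgeR adjusted p = 0.0131), and Calr (calreticulin, -0.52 ± 0.14) and Hyou1 (-0.58 ± 0.16) fell on the log2 scale. Trib3, a pseudokinase induced by the same stress, was at 6.77, 7.51 and 8.03 CPM in L and 3.94, 4.67 and 5.58 CPM in D (log2 fold change 0.62 ± 0.17, edgeR adjusted p = 0.0489). These calls were near the threshold: with DESeq2's size factors in edgeR, 1 gene was lower and 1 higher, and without any one library at most 1 gene was called in either direction. With only the day 28 libraries 7 were lower and 1 higher, and with only the L and D libraries 6 were lower and 0 higher. Those fits called 9.01% and 5.14% of all genes. Of 17 immediate early genes the transcription factor genes Klf4 (-0.97 ± 0.23) and Nr4a3 (-1.13 ± 0.29) fell. The other 15 were not called, among them Fos (0.25) and Egr1 (0.41), and the list's median was 0.25. Both calls were lost without L replicate 1, without L replicate 3 or without D replicate 1.

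Some antibody genes rose in L, with calls that were lost without single libraries. Of 17 plasma cell and immunoglobulin constant genes 4 rose and none fell, with a median log2 fold change of 0.81. Igha, the constant region of the mucosal antibody IgA, stood at 260.3, 72.3 and 202 CPM in L and 46.3, 60.4 and 46.7 CPM in D (log2 fold change 1.78 ± 0.44, edgeR adjusted p = 0.0257). Jchain, which joins IgA and IgM into polymers, stood at 87.7, 28.9 and 62.7 CPM in L and 23.5, 18.5 and 16.5 CPM in D (log2 fold change 1.60 ± 0.39, edgeR adjusted p = 0.0244). The kappa light chain gene Igkc stood at 329.7, 203 and 292 CPM in L and 159.7, 130.6 and 100.9 CPM in D (log2 fold change 1.05 ± 0.28, edgeR adjusted p = 0.0449), and Ighg2c was at 0.730, 0.516 and 7.79 CPM in L and 0.274, 0.114 and 0.543 CPM in D (log2 fold change 3.18 ± 0.86, edgeR adjusted p = 0.0466). L replicate 2 was the lowest L library in all 4, and in Ighg2c it overlapped with D. The count fell to 1 without L replicate 1 and to 0 without L replicate 3 or without any one D library. With only the day 28 libraries 7 were higher and 1 lower, and with only the L and D libraries 5 were higher and 0 lower. Those fits called 9.01% and 5.14% of all genes. Immunoglobulin genes share near-identical stretches, so the authors' counting could split their reads.

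Of 14 B cell genes, Cd37, a tetraspanin of B cells and other leukocytes, rose (log2 fold change 0.83 ± 0.22, edgeR adjusted p = 0.0393) and 13 were not called. The list's median was 0.63, 11 of 14 had all L libraries above all D libraries (16.5% of all genes did), and 8 had an unadjusted p under 0.05. Cd79a, a part of the B cell receptor, was at 66.8, 67.2 and 73.2 CPM in L and 51.4, 38.7 and 33.7 CPM in D. Cd37 lost its call when any one of the 6 libraries was left out, and DESeq2 called 2 members of the list higher with all of them. With only the day 28 libraries 9 members were called higher, and with only the L and D libraries 6. Those fits called 9.01% and 5.14% of all genes. Cxcl13, the chemokine of B cell follicles, stood at 4.01, 1.38 and 3.26 CPM in L and 4.27, 5.18 and 4.45 CPM in D and was not called.

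Some genes of gamma-delta T cells fell in L, and D replicate 3 was far above the other D libraries in most of them. Of 9 tested members 4 fell and none rose, with a median of -1.52. Cd163l1, a scavenger receptor of interleukin-17-producing gamma-delta T cells, stood at 1.67, 2.06 and 1.75 CPM in L and 2.35, 3.30 and 30.5 CPM in D (log2 fold change -2.76 ± 0.64, edgeR adjusted p = 0.0177). The receptor constant genes Tcrg-C1 and Trdc stood at 3.07, 2.12 and 2.78 CPM in L and 3.94, 3.30 and 21.3 CPM in D and at 3.65, 3.90 and 3.38 CPM in L and 4.10, 4.73 and 22.9 CPM in D. Cxcr6, a chemokine receptor of tissue T cells outside the list, was at 8.70, 9.58 and 8.94 CPM in L and 11.1, 10.7 and 43.6 CPM in D. In all 4 genes D replicate 3 was several times higher than the other D libraries, which lay just above L. Without D replicate 3 the log2 fold changes were -0.66 for Cd163l1, -0.47 for Tcrg-C1, -0.30 for Trdc and -0.29 for Cxcr6, and none was called. Of the 9 members, 1 was called in that analysis.

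Structural and epithelial genes gave few calls. Over 26 lists with no called member, which hold 341 tested genes, edgeR found 22 genes higher and 14 lower at an unadjusted p under 0.05. DESeq2 called 2 of them higher and 1 lower. Over all 16903 genes, 1370 were higher and 1459 lower at that unadjusted threshold. DESeq2 called 313 higher and 217 lower of 15916. The 26 lists also hold immune cell, interferon and ribosomal protein genes, among others. Their medians ran from -0.93 (cardiac muscle) to 0.71 (thymus, 2 genes tested). These lists include surfactant and alveolar type 2 genes (median log2 fold change 0.02), alveolar type 1 genes (-0.03), endothelial genes (-0.09), motile cilium genes (0.02), club and secretory airway genes (-0.11), cell division genes (0.08), Nrf2 antioxidant genes (0.03) and cholesterol genes (0.03). Of 10 epithelial repair genes the 1 called was Lgals3, described above. The airway defence gene Bpifa1 was at 0.990, 1.55 and 0.181 CPM in L and 7.44, 0.228 and 0.198 CPM in D, with 1 high D library, and was not called.

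Of 20 collagen and matrix genes none rose and 1 fell, with a median of -0.20. The gene that fell was Spon2, a secreted matrix protein, at 38.4, 48.1 and 32.0 CPM in L and 111.9, 131.4 and 100.6 CPM in D (log2 fold change -1.57 ± 0.37, edgeR adjusted p = 0.0190), a call lost without L replicate 1, L replicate 3, D replicate 1 or D replicate 2. Col1a1 stood at 138, 112.1 and 132.96 CPM in L and 76.2, 180.1 and 185 CPM in D (-0.23 ± 0.29 on the log2 scale) and Col3a1 at 831, 564 and 816 CPM in L and 642, 1063 and 954 CPM in D, both with overlapping libraries. Timp1, an inhibitor of metalloproteinases, stood at 10.01, 7.68 and 11.9 CPM in L and 7.77, 11.7 and 9.44 CPM in D. None of 11 profibrotic mediator and stromal protease genes was called (1 lower at an unadjusted p under 0.05, 0 by DESeq2). Of 11 smooth muscle genes 1 fell, the actin-binding Synpo2 (log2 fold change -0.41 ± 0.09, edgeR adjusted p = 0.00881), and 7 had all L libraries below all D libraries against 14.4% of all genes. Synpo2 lost its call without L replicate 1 or without D replicate 3.

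Genes of tissue that can be carried along with lung gave 1 call. Of 9 fat genes, that call was Scd1, the desaturase that makes oleate, which fell and stood at 2402, 1518 and 2184 CPM in L and 2553, 4663 and 5748 CPM in D (log2 fold change -1.11 ± 0.26, edgeR adjusted p = 0.0195). Lung epithelium expresses Scd1 too. The call was lost without L replicate 2, L replicate 3, D replicate 2 or D replicate 3. The fat cell gene Cfd was at 0.625, 0.516 and 0.362 CPM in L and 4.27, 2.96 and 1.09 CPM in D, below D in every L library and not called (edgeR adjusted p = 0.241). The cardiac muscle gene Myh6, from the sleeves of the pulmonary veins, was at 0.625, 6.48 and 3.56 CPM in L and 12.7, 3.08 and 10.8 CPM in D, and none of 11 genes of that list was called (2 lower at an unadjusted p under 0.05, 0 by DESeq2), with a median of -0.93. Of 20 cytosolic ribosomal protein genes none was called by edgeR (5 higher at an unadjusted p under 0.05, 1 by DESeq2). Of these, 18 lay above D in every L library, against 16.5% of all genes. The log2 fold changes of the 20 ran from 0.16 to 0.41.

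**Figure D4:**
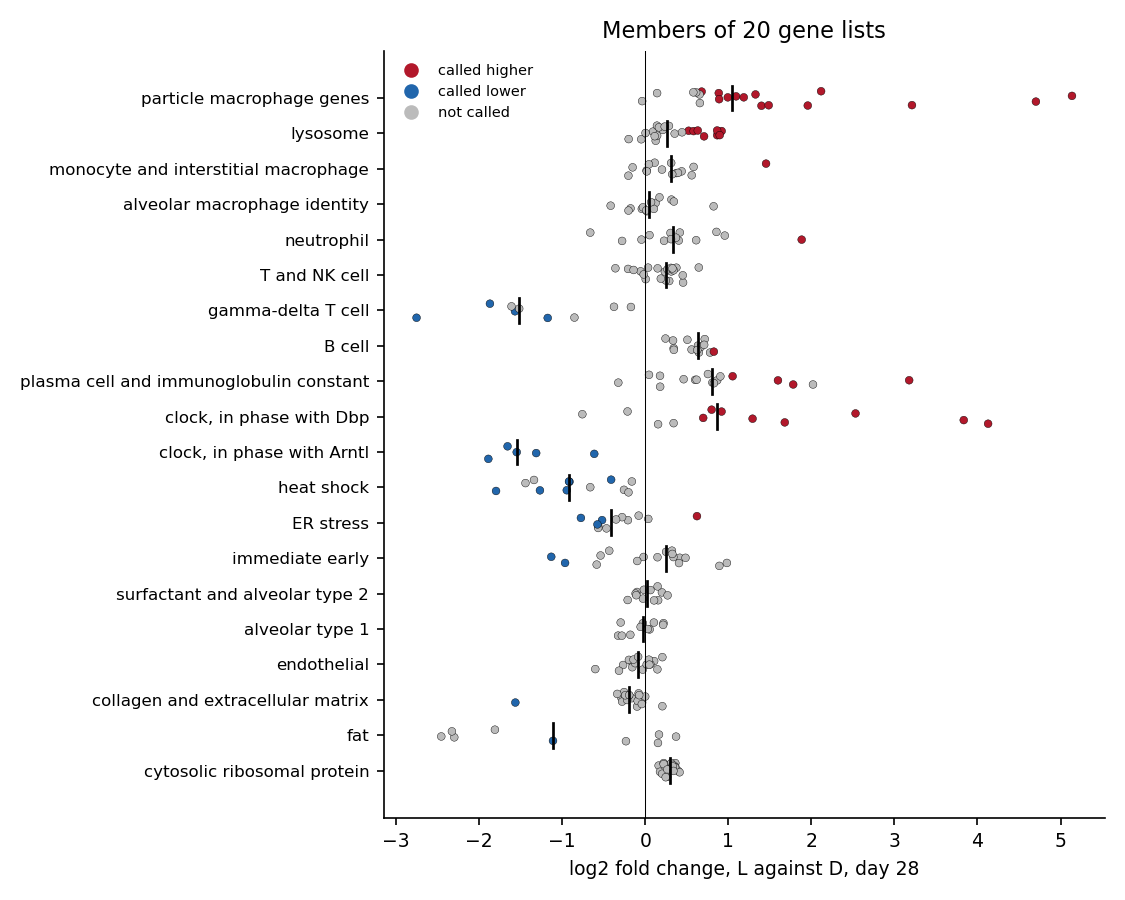
Log2 fold change of L against D at day 28 (horizontal) for the tested members of 20 of the 44 gene lists (1 row per list, 1 point per gene, with vertical scatter only to separate points); red is called higher, blue is called lower, grey is not called and the black bar is the list's median. Macrophage and Dbp-phase clock genes extend to the right, Arntl-phase clock, heat shock and gamma-delta T cell genes to the left, and alveolar and endothelial genes stay near 0.

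Among single genes with the largest and smallest fold changes outside these groups, Cxcr1, a chemokine receptor, stood at 10.8, 8.43 and 18.5 CPM in L and 1.42, 0.684 and 2.07 CPM in D (log2 fold change 3.12 ± 0.48, edgeR adjusted p = 2.96e-04). Stra6l, a transporter of retinol, stood at 11.8, 5.68 and 14.3 CPM in L and 1.59, 1.25 and 2.03 CPM in D (log2 fold change 2.67 ± 0.51, edgeR adjusted p = 0.00325). Rgs1, which shortens G protein signalling in leukocytes, stood at 70.8, 31.4 and 35.5 CPM in L and 12.3, 12.2 and 6.52 CPM in D (log2 fold change 2.14 ± 0.44, edgeR adjusted p = 0.00601) and lost its call without L replicate 1 or D replicate 3. The uncharacterised 4930430E12Rik was at 2.71, 1.38 and 2.96 CPM in L and 0.109, 0.228 and 0.148 CPM in D, and the antibody variable segments Ighv6-6 and Igkv4-72 were at 3.91, 6.94 and 0.785 CPM in L and 0.766, 0.456 and 0.692 CPM in D and at 3.54, 6.54 and 5.26 CPM in L and 0.985, 0.968 and 1.33 CPM in D, respectively. These last 3 genes lost their calls in 6, 7 and 9 of the 14 alternatives.

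On the low side, Npr3, the clearance receptor of natriuretic peptides, stood at 65.0, 76.0 and 65.3 CPM in L and 256, 154 and 243 CPM in D (log2 fold change -1.69 ± 0.25, edgeR adjusted p = 1.38e-04). In D it was at 178 ± 39.5, 83.6 ± 19.5 and 218 ± 55.3 CPM at days 1, 7 and 28. The sorting nexin gene Snx31 stood at 0.208, 0.573 and 0.604 CPM in L and 1.97, 3.02 and 1.38 CPM in D (log2 fold change -2.23 ± 0.39, edgeR adjusted p = 0.00142), and Gprin3 at 4.43, 4.36 and 3.44 CPM in L and 10.2, 9.97 and 11.8 CPM in D (log2 fold change -1.41 ± 0.37, edgeR adjusted p = 0.0402). The predicted genes Gm15459 and Gm8355 were at 2.24, 1.78 and 2.66 CPM in L and 5.58, 7.24 and 6.42 CPM in D and at 0.521, 0.459 and 0.483 CPM in L and 1.91, 2.34 and 0.889 CPM in D. Npr3, Snx31 and Gm15459 kept their calls in every alternative in which they were tested, Gm8355 lost its call in 3 and Gprin3 in 9.

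At the same day and dose, L differed from S in few genes. Of 16903 genes 11 were higher in L (0.0651%, and 0.0651% in either direction) and 0 were lower (0%; edgeR, with 283 lower at an unadjusted p under 0.05, and 5 lower by DESeq2). These comparisons share the L libraries with the comparison against D. Mmp12 was at 10.9 ± 0.230 CPM (SD, n = 3) in S and 269 ± 148 in L (log2 difference 4.62 ± 0.48, edgeR adjusted p = 2.02e-06). Gpnmb was at 44.7 ± 5.34 in S and 544 ± 283 in L (3.59 ± 0.47, edgeR adjusted p = 1.68e-04). Trem2 was at 7.73 ± 2.24 and 38.6 ± 17.1 (2.30 ± 0.34, edgeR adjusted p = 7.13e-04). Hk3 (1.502 ± 0.26, edgeR adjusted p = 0.00645), Mfge8 (1.39 ± 0.20, edgeR adjusted p = 6.58e-04) and Ctsl (0.74 ± 0.14, edgeR adjusted p = 0.0253) were higher in L too. Npy had 0 counts in the S libraries and passed the low-count filter through L, so its direction was fixed in advance. The other called genes were Slc37a2, Lhfpl2, Hpgds and Gm20056. No clock gene, heat shock gene, antibody gene or B cell gene of the lists was called between L and S. The clock estimates were not near 0, with median log2 differences of 0.79 for genes in phase with Dbp and -0.72 for those with Arntl. Dbp differed by 2.17 ± 0.51 (edgeR adjusted p = 0.116), Nr1d2 by 0.91 ± 0.21 (edgeR adjusted p = 0.0974) and Arntl by -1.16 ± 0.27 (edgeR adjusted p = 0.110). The medians of the heat shock, antibody and B cell lists were -0.05, 0.13 and 0.10. The count of 11 was 5 to 7 without any one of the 6 compared libraries other than L replicate 2, and 64 without L replicate 2.

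Against US, 87 genes differed (0.515%), with 59 higher in L (0.349%) and 28 lower (0.166%). Of the 20 particle macrophage genes 11 were higher, with Mmp12 at 9.26 ± 1.60 CPM in US (log2 difference 4.82 ± 0.48, edgeR adjusted p = 8.97e-07) and Gpnmb at 34.8 ± 9.83 (3.93 ± 0.48, edgeR adjusted p = 2.50e-05). Of the clock genes, 6 of 12 in phase with Dbp were higher and 3 of 5 in phase with Arntl were lower. Dbp differed by 3.70 ± 0.56, edgeR adjusted p = 5.36e-04 on the log2 scale, Npas2 by -2.05 ± 0.29, edgeR adjusted p = 1.65e-04 and Arntl by -1.55 ± 0.27, edgeR adjusted p = 0.00294. The largest difference downward was Cxcl9, an interferon-induced chemokine, at 1.33 ± 0.314 CPM in L and 22.0 ± 35.6 CPM in US (SD, n = 3; log2 difference -4.09 ± 0.91, edgeR adjusted p = 0.0261). It was at 3.22 ± 2.78 CPM in D. No gene of the heat shock list was called between L and US, but the list's median log2 difference was -0.36. Hsph1 differed by -0.9995 ± 0.27 (edgeR adjusted p = 0.0855) and Hspa8 by -0.51 ± 0.16 (edgeR adjusted p = 0.185). Dnajb1 went the other way, by 0.14 ± 0.14 (edgeR adjusted p = 0.714). Of the endoplasmic reticulum stress genes, Hspa5 was called lower in L (-0.75 ± 0.17, edgeR adjusted p = 0.0362). The count of 87 was 29 without L replicate 1 or without L replicate 3, 47 without US replicate 1 and 151 without L replicate 2.

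The difference from D was then compared between days by an interaction term. Between days 28 and 7 no gene passed (0%; edgeR, with 904 at an unadjusted p under 0.05, and 11 by DESeq2). Mmp12 was already at 129.1 ± 78.1 CPM in L at day 7 against 5.39 ± 1.69 in D, and Gpnmb at 147 ± 69.8 against 20.9 ± 3.75. The L effect on Mmp12 was 0.57 ± 0.63, edgeR adjusted p = 0.835 on the log2 scale larger at day 28 than at day 7, and that on Gpnmb 1.90 ± 0.63, edgeR adjusted p = 0.804. S at day 7 held Trem2 at 18.5 ± 4.81 CPM, near the 21.7 ± 13.03 of L. At day 28 S stood at 7.73 ± 2.24.

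Between days 28 and 1, 41 genes passed (0.243%), with 19 whose L effect was higher at day 28 (0.112%) and 22 whose effect was lower (0.13%). Mmp12 was at 13.99 ± 8.04 CPM in L and 6.38 ± 1.33 in D at day 1, and the L effect differed by 3.97 ± 0.65, edgeR adjusted p = 0.00620 on the log2 scale. Gpnmb differed by 3.74 ± 0.64, edgeR adjusted p = 0.00676 and Trem2 by 3.04 ± 0.51, edgeR adjusted p = 0.00620. The heat shock genes Hspa8 (-1.46 ± 0.23, edgeR adjusted p = 0.00620) and Hsph1 (-1.98 ± 0.37, edgeR adjusted p = 0.0187) had a lower L effect at day 28, as did Cry1 (-1.54 ± 0.27, edgeR adjusted p = 0.00904). Of the 12 heat shock genes 6 passed in this direction. Arntl did not pass (-0.52 ± 0.38, edgeR adjusted p = 0.557). The count of 41 was 318 without L replicate 3 of day 1 and 76 without L replicate 2 of day 28. It was 13 without L replicate 1 and 10 without L replicate 3 of day 28, 17 and 13 without D replicates 1 and 2 of day 28, 7 and 11 without L replicates 1 and 2 of day 1, and 16, 9 and 8 without D replicates 1, 2 and 3 of day 1.

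**Figure D5:**
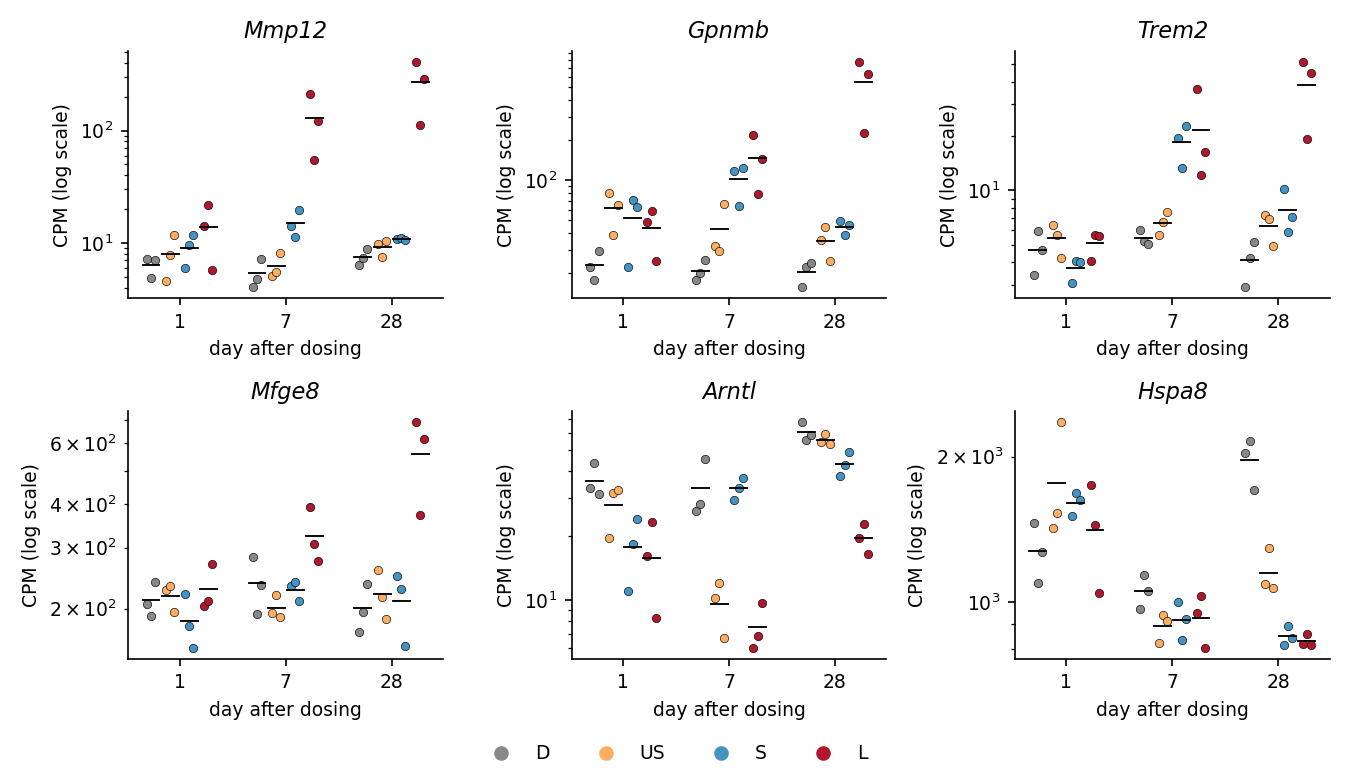
CPM on a log scale for 6 genes in all 36 libraries, by day after dosing (horizontal) and material (grey D, orange US, blue S, red L), 1 point per library with the mean of 3 as a black bar. The highest mean of Mmp12, Gpnmb, Trem2 and Mfge8 is that of L at day 28, and the highest mean of Arntl and Hspa8 is that of D at day 28.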

How the data were processed

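Poly(A) RNA of lung was sequenced from stranded libraries. The authors deposited a table of read counts per gene, and TPM, FPKM and coverage values per gene for each library. The counts are whole numbers and were tested as deposited. The deposited TPM values served for levels and for 1 alternative, and the deposited FPKM and coverage (signal) values were not used. The submitters' processing notes name bcl2fastq 2.19.1.403, CASAVA, STAR 2.5.1b, featureCounts 1.5.1 and StringTie 1.3.3 and the builds GRCm38 and GRCh37, with no roles. The strand setting of the counting is not given in the sources used here. Overlapping genes on opposite strands may share reads.

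Groups came from the sample labels. Genes were filtered with edgeR 4.0.16 (filterByExpr, 16903 of 46078 kept) in R 4.3.3. The quasi-likelihood F test was fitted over all 36 libraries, with TMM scaling and a mean for each of the 12 groups, with Benjamini-Hochberg adjustment across the tested genes (threshold 0.05). The fit was tested on simulated data. CPM values use each library's total, without TMM. The 6 libraries held 16554469 to 20242155 counts, and the replicates differed by more than sampling noise.

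The text names the 15 largest and 15 smallest fold changes among called genes with a mean of at least 1 CPM and groups that do not overlap, up to 3 called members of each of 44 gene lists with the smallest p, and a panel given whatever its test. For each other comparison the rule takes the 5 largest and 5 smallest. Other list members are named for completeness, some members that were counted are not reported here by name, and Tyrobp, Ibsp and the genes of the closing observations were chosen after their values were seen. The comparison and the lists were chosen with earlier results of these data known. Alternatives were other scaling, no filter, a replicate block, DESeq2 1.42.0, fits on fewer libraries, limma 3.58.1 on log2(TPM + 1) and leaving out single libraries.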

Additional observations from a re-analysis of the deposited data

Results flagged for a closer look

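The effect of L relative to D differed between days 28 and 1 in these genes by edgeR's interaction term, given as the difference of log2 fold changes. The effect was higher at day 28 by 3.97 for Mmp12, 3.74 for Gpnmb, 3.04 for Trem2, 2.70 for Nr1d1 and 2.10 for Fam83f. It differed by -2.16 for Dclk3, -2.02 for Arsi, -1.98 for Hsph1, -1.70 for Gm15459 and -1.54 for Cry1. The D mean lay at different levels on the 2 days in several of these genes, which was not tested. Nr1d1 went from 115.5 ± 24.2 to 14.6 ± 2.31 CPM (SD, n = 3), Hsph1 from 67.3 ± 10.5 to 130.6 ± 27.7 and Cry1 from 16.4 ± 2.26 to 41.0 ± 1.61. Arsi went from 0.792 ± 0.223 to 2.74 ± 0.667 CPM in D, and stood at 1.53 ± 0.0592 and 1.37 ± 0.138 in L. Gm15459 went from 4.27 ± 0.504 to 6.41 ± 0.827 CPM in D. In Mmp12 the D means were 6.38 ± 1.33 and 7.51 ± 1.26 CPM.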

How the results depend on the processing

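Counts are given as a percent of the genes tested in each fit, with the number of genes in parentheses. For L against D at day 28, 2.15% passed (363), and 1.16% with a replicate block (196), 5.14% with only the groups compared (805), 9.01% with only the day 28 libraries (1462), 0.947% by limma on log2(TPM + 1) (148) and 0.624% to 2.08% without single libraries. With DESeq2 scaling in edgeR (355), without the filter (276), by DESeq2 (530) and without S replicate 2 of day 7, the deepest library (304), the number stayed within 1.5 times. For L against S at day 28, 0.0651% passed (11), and 0.112% without the filter (33), 0.0414% with the replicate block (7), 0.219% by DESeq2 (37), 0.105% with only the day 28 libraries (17), 0.032% by limma (5) and 0.0291% to 0.373% without single libraries. For L against US at day 28, 0.515% passed (87), and 1.11% by DESeq2 (187), 2.66% with only the day 28 libraries (431), 0.25% by limma (39) and 0.169% to 0.88% without single libraries. Between days 28 and 7 none passed in edgeR (904 at an unadjusted p under 0.05), and 0.017% without the filter (5), 0.0651% by DESeq2 (11), 0.0307% with only the groups compared (5), 0.0064% by limma (1) and 0% to 0.0175% without single libraries. Between days 28 and 1, 0.243% passed (41), and 0.101% with the replicate block (17), 0.655% by DESeq2 (100), 0.0557% with only the groups compared (9), 0.128% by limma (20), 0.152% without S replicate 2 of day 7 (26) and 0.0408% to 1.85% without single libraries. The cause was not tested, though fits without a library have fewer samples. Of 57 named genes called between L and D, 29 kept their call in every alternative, 28 lost it in at least 1 and 0 reversed. Among genes not called, the Timp1 log2 fold change, L against D at day 28, turned to -0.00258 with the replicate block and -0.0235 by limma and ran from -0.13 to 0.18 without single libraries, and Bpifa1 from -2.09 to 2.07. Deviations of same-numbered L and D libraries correlated at -0.01, -0.01 and 0.02, and those of L with S and US at -0.136 to 0.098. Not every library correlated best with its own number. With 3 libraries per group these values cannot tell whether a replicate number marks a shared batch, which was not tested. At 16.6 to 20.2 counts per CPM, genes below 1 CPM rest on few counts.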

Other observations

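These gene families were chosen after their values were seen. Over all genes, 1.25% were called higher and 0.893% lower. Of the tested immunoglobulin variable segments, 7 rose in L (5.6%) and none fell, with a median log2 fold change of 0.80, and near-identical copies make single segments uncertain. Of 18 chaperones and cochaperones of Hsp70 and Hsp90 outside the list above, 8 fell and none rose, with a median of -0.46. These were Stip1 (-0.91), Chordc1 (-0.79), Ahsa2 (-1.02), Fkbp4 (-0.61), Hsp90ab1 (-0.72), Cacybp (-0.63), Dnajb4 (-0.54) and Dnaja4 (-0.59). Hsp90ab1, the constitutive Hsp90, stood at 1001, 1003 and 1020.1 CPM in L and 1772, 1705 and 1405 CPM in D. The cold-inducible RNA-binding protein gene Cirbp rose, at 88.5, 98.8 and 99.3 CPM in L and 29.6, 37.7 and 41.7 CPM in D (log2 fold change 1.37 ± 0.28, edgeR adjusted p = 0.00530).

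Of 13 cathepsin genes 7 rose and none fell, with a median of 0.86. These 7 were already counted in the macrophage and lysosome lists above. Of 21 subunits of the proton pump that acidifies lysosomes, Atp6v0d2 and Atp6v1c1 (0.46) rose and Atp6v0a2 (-0.42) fell, with a median of 0.22. Of 7 myeloid receptors of the Cd300 family 3 rose, with a median of 0.78, and of 6 fatty acid binding protein genes Fabp4 and Fabp5 rose.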
